A study of Mus musculus with 3 samples.

Results

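Fc receptors bind the constant part of antibodies, and 6 mouse genes of this family and its partners are described here: Fcgr2b, Fcgr3 and Fcgr1 (receptors for IgG), Fcer2a (CD23, the low-affinity IgE receptor), Fcer1g (the signalling chain shared by activating Fc receptors) and Fcgrt (the heavy chain of the neonatal Fc receptor). They were chosen by symbol, 6 of the 51912 genes in the count matrices, and all 6 were found, each once. The data are single-cell RNA-seq from lymph node stroma of C57BL/6 mice of the genotype CXCL13-TdTomato+, which carry a transgene with Cre and tdTomato driven by Cxcl13. Live Podoplanin+ CD31- CD45- TdTomato+ cells were sorted, so endothelial cells and leukocytes should be depleted. Mice received antigen-antibody immune complexes (ICs): in 2 libraries (2-IC replicates 1 and 2) a first antigen-IC was given 7 days and a second 24 h before analysis, and in the third (1-IC replicate 1) a single antigen-IC was given 24 h before. Nodes of several mice were pooled for a condition, and the sources used here do not tie mice to libraries or give their age. The titles also carry short names: Biotin24h (2-IC replicate 1), Biotin7d (2-IC replicate 2) and CXCL13ICPE24h (1-IC replicate 1). Those of the 2-IC libraries name biotin and 1 time each, so groups follow the full titles. What biotin stands for, and whether the 2-IC libraries are repeats or sorted fractions, is not stated in the sources used here.

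Follicular dendritic cells (FDCs) are stromal cells of the B cell follicle that hold ICs on their surface through complement receptor 2 (CR2, gene Cr2). They also carry FcγRIIB, the product of Fcgr2b, whose part in holding ICs was not measured by these data. FcγRIIB has no activating partner chain: it carries an inhibitory motif and dampens signalling in B cells and myeloid cells, whereas FcγRI and FcγRIII (genes Fcgr1 and Fcgr3) need the Fcer1g chain to reach the surface and to signal. CD23 is found on follicular B cells and on FDCs, where it binds IgE complexes, and the neonatal receptor returns IgG and albumin from endosomes to the cell exterior.

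In the GRCm38 annotation used here (GENCODE M21) the 6 genes lie on the minus strand: Fcgr2b at chr1:170958617-170976547, Fcgr3 at chr1:171051174-171064935, Fcer1g at chr1:171229572-171234365, Fcgr1 at chr3:96282909-96293969, Fcgrt at chr7:45092990-45103851 and Fcer2a at chr8:3681737-3694175. Fcgr2b and Fcgr3 are paralogs, and up to 16.0% of the 50-base words of an Fcgr2b transcript also occur in Fcgr3. In the last 500 bases, where a 3' assay reads, at most 33 words were shared for an Fcgr2b transcript and 0 for an Fcgr3 transcript, so a small part of the reads could be split between them. The 250 bases upstream of the annotated RefSeq start on GRCm38.p6 are shown 5′ to 3′ on the minus strand. They cover the pair found together in Cr2-positive stroma (Fcgr2b and Fcer2a) and the pair found together in Ptprc barcodes (Fcgr3 and Fcgr1). The first listed start was used for Fcer2a and Fcgr3. For Fcgr2b and Fcgr3 the RefSeq start differs from the span above, and both windows lie inside the GENCODE gene. Capitals mark the letters GAGGAA, the core of PU.1-type ETS motifs, on either strand.
Fcgr2b, chr1:170976072-170976321: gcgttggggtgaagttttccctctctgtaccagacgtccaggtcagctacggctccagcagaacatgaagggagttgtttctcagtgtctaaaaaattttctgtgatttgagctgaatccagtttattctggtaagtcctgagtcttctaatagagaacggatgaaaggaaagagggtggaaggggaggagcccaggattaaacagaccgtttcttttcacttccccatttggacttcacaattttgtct
Fcer2a, chr8:3694175-3694424: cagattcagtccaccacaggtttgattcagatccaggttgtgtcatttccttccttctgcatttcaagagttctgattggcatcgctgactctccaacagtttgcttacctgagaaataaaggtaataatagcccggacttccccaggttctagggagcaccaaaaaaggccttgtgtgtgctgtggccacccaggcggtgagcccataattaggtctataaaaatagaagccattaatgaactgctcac
Fcgr3, chr1:171059404-171059653: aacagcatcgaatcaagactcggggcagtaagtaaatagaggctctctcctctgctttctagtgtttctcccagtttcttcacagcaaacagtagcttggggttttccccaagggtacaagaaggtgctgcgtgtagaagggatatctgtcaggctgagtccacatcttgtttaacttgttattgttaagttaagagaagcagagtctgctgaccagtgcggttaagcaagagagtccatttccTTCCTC
Fcgr1, chr3:96293970-96294219: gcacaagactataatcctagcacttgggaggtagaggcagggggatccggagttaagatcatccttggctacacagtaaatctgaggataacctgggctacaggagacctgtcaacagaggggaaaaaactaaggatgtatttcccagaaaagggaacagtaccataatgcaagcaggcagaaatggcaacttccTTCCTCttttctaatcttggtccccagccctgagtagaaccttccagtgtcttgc
GAGGAA occurred once each in the Fcgr3 and Fcgr1 windows and in neither of the others, nor in those of Fcer1g and Fcgrt, while 23.3% of 32851 promoter windows of this length held it. These are letter matches in a short window, and binding was not measured.

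The files held 3790, 1029 and 667 barcodes (2-IC replicate 1, 2-IC replicate 2 and 1-IC replicate 1, the order used throughout), of which 3133, 756 and 624 had at least 200 genes and at most 10% mitochondrial UMIs. Median depth was 4120.5, 9468 and 4620 UMIs per barcode. The 2-IC libraries shared 76 barcode sequences. In 75 of these pairs the shallower copy held under 3% of the UMIs of the deeper one, and 2-IC replicate 1 and 1-IC replicate 1 shared 2. Leaving out the shallower copies changed no call of a member.

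Barcodes were sorted into classes without using the 6 genes. Stroma was matrix-rich, with at least 2% of UMIs from 8 stromal genes (Cxcl13, Col1a1, Col1a2, Col3a1, Sparc, Bgn, Dcn and Igfbp7), and had 0 UMIs of 13 genes of other lineages. It was divided into Cr2-positive stroma (at least 1 Cr2 UMI; 121, 20 and 42 barcodes) and Cr2-negative stroma (1058, 229 and 197). Matrix-rich barcodes that also held Cd79a (a B cell receptor chain) or Ptprc (CD45) are called mixed barcodes, of which 81, 13 and 13 were Cr2-positive and 244, 35 and 14 were Cr2-negative. Matrix-poor barcodes with Cd79a are called Cd79a barcodes (776, 150 and 188), and matrix-poor barcodes with Ptprc but no Cd79a are called Ptprc barcodes (148, 63 and 35).

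All 8 FDC markers examined were present in Cr2-positive stroma, where their summed level was 60279, 42329 and 86261 counts per 1000000 UMIs (CPM), against 16446, 13042 and 22611 CPM in Cr2-negative stroma. Cr2 chose the classes, and Cxcl13, one of the 8 matrix genes, made up most of the Cr2-positive sum (36556, 25383 and 56243 CPM). Enpp2 went the other way, at 2449, 2289 and 1764 CPM in Cr2-positive and 3232, 3293 and 2896 CPM in Cr2-negative stroma. Median depth was 5507, 14535.5 and 6968.5 UMIs in Cr2-positive and 4916, 15920 and 6971 UMIs in Cr2-negative barcodes, higher in the former in 2-IC replicate 1 alone. Of 8 B cell markers, none of which chose the classes, the summed level was 112, 30.2 and 35.9 CPM in Cr2-positive and 107, 26.6 and 35.2 CPM in Cr2-negative stroma. Pax5 was at 0 in Cr2-positive stroma in each library. Both classes were chosen to lack Cd79a and Cd79b, which are B cell genes too, so that choice bears on both sums. In Cd79a barcodes the same sum was 5724, 3868 and 4566 CPM.

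The transcripts of the 6 genes fell in different classes. Over all barcodes there were 1285 UMIs of Fcgr2b, of which 40.5% lay in Cd79a barcodes and 18.4% in Cr2-positive stroma, and 2983 of Fcer2a, of which 72.4% and 8.51% lay there. Ptprc barcodes held 55.2% of 1323 Fcer1g UMIs, 54.1% of 37 Fcgr3 UMIs and 70% of 50 Fcgr1 UMIs. Cr2-negative stroma held 47.2% of 5392 Fcgrt UMIs. CPM values are given below within a gene, since counts were not divided by transcript length, and intervals and limits cover counting error only.

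**Figure D1:**
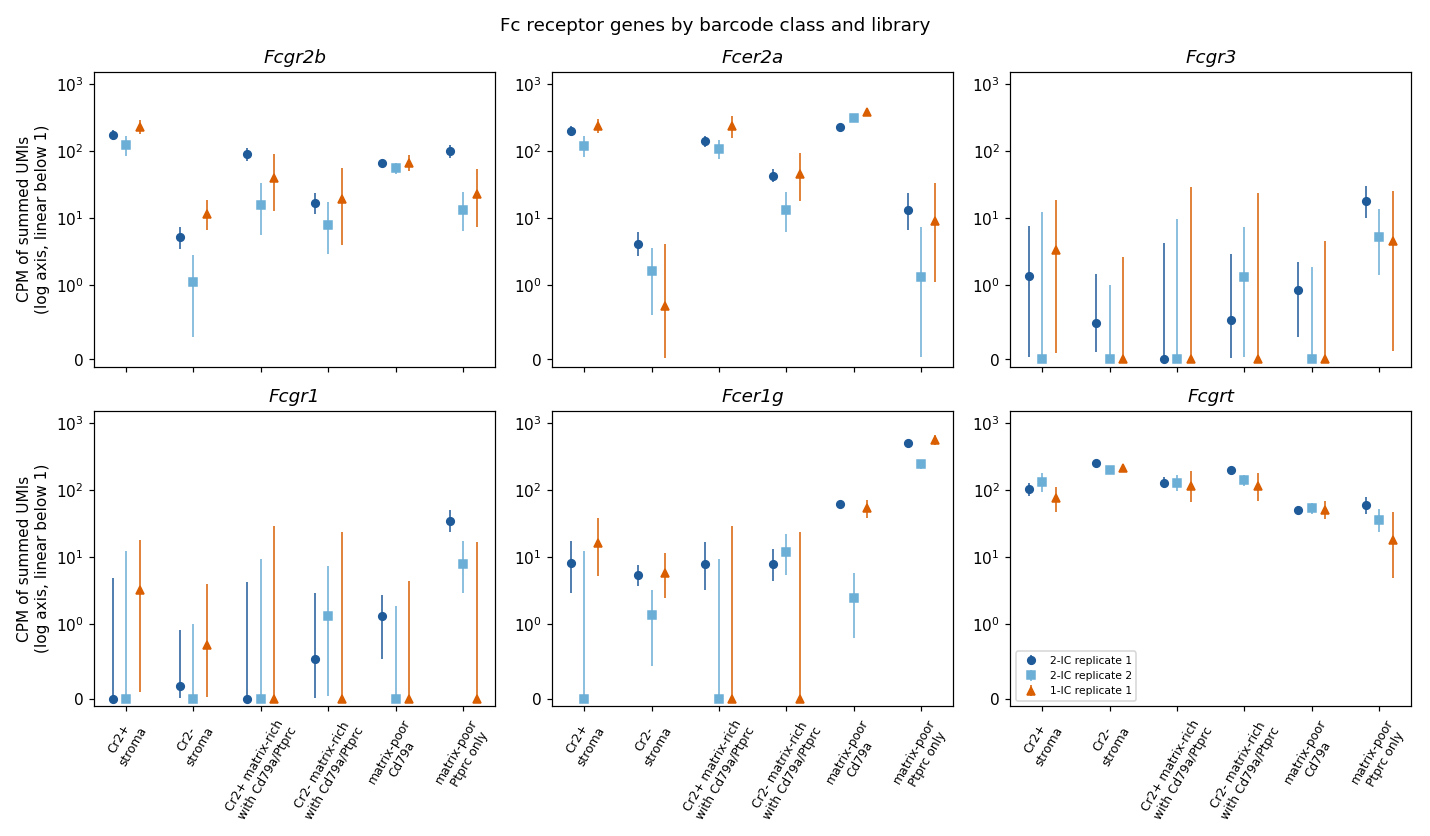
Level of each of the 6 Fc receptor genes (y axis, CPM on a log scale that is linear below 1) in 6 barcode classes (x axis), with 1 point per library and bars for the exact 95% Poisson interval of the summed count. Fcgr2b and Fcer2a stood at 121 to 228 and 117 to 235 CPM in Cr2-positive stroma and at or below 11.5 and 4.11 CPM in Cr2-negative stroma, while Fcer1g reached 241 to 557 CPM in Ptprc barcodes.

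Fcgr2b was far higher in Cr2-positive than in Cr2-negative stroma. It measured 174 (95% Poisson interval 145 to 207), 121 (84.6 to 167) and 228 (178 to 288) CPM in Cr2-positive stroma and 5.10, 1.09 and 11.5 CPM in Cr2-negative stroma. The 3 libraries of one class lay above the 3 of the other with no overlap, and 1-IC replicate 1 was the highest of both classes. The share of all genes without such overlap is not given here, for this comparison or those below. An Fcgr2b UMI was seen in 42.1%, 35% and 61.9% of Cr2-positive barcodes and in 2.27%, 1.31% and 4.06% of Cr2-negative ones. With each barcode thinned to 2000 UMIs, which left out 21, 0 and 4 shallower Cr2-positive barcodes, the shares were 20%, 20% and 44.7% against 1.15%, 0% and 0.559%. The log2 fold change was 5.19 ± 0.45 (SE) with an adjusted p of 1.98e-07 by edgeR's quasi-likelihood test. The methods describe independent experiments with the nodes of several mice pooled, but the sources used here do not tie mice to the 3 libraries. Library was a block in the fit, so differences between whole libraries were set aside. The p-values of class comparisons measure how class levels varied across libraries beyond that, with an estimate of spread shared by the classes. They do not measure the spread between mice.

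Fcer2a had the same pattern. Its level was 197 (166 to 231), 117 (81.8 to 163) and 235 (184 to 296) CPM in Cr2-positive stroma against 4.11, 1.63 and 0.718 CPM in Cr2-negative stroma, where 1-IC replicate 1 had a single UMI. Again the classes did not overlap, and 2-IC replicate 2 was the lowest of the Cr2-positive sums. The transcript was seen in 35.5%, 35% and 45.2% of Cr2-positive and in 2.08%, 2.18% and 0.508% of Cr2-negative barcodes, and after thinning in 21%, 25% and 28.9% against 0.943%, 0.483% and 0%. The log2 fold change was 5.94 ± 0.38 (edgeR adjusted p = 1.4e-08). Fcer2a was also measured against the B cell marker sum of the same class. Per 100 B cell marker UMIs there were 175, 389 and 655 Fcer2a UMIs in Cr2-positive stroma and 4.001, 8.04 and 8.15 in Cd79a barcodes. For Fcgr2b the numbers were 155, 400 and 636 against 1.16, 1.43 and 1.46. The B cell marker counts were 84, 9 and 11 UMIs in Cr2-positive stroma and 30644, 7776 and 3777 in Cd79a barcodes. The stromal ratios thus rest on few UMIs, above all in 2-IC replicate 2 and 1-IC replicate 1. Stroma was chosen to lack Cd79a, Cd79b and Ptprc and Cd79a barcodes to hold Cd79a, so that choice bears on these ratios. The source of the transcripts was not tested.

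Fcgrt went the other way. It was at 103 (81.3 to 129), 131 (93.1 to 179) and 75.0 CPM in Cr2-positive stroma and at 251, 196 and 213 CPM in Cr2-negative stroma, without overlap. It was nonetheless widely seen, in 35.5%, 55% and 35.7% of Cr2-positive and 65.2%, 85.2% and 64.5% of Cr2-negative barcodes. The log2 fold change was -1.14 ± 0.21 (edgeR adjusted p = 0.000992). B2m, the light chain that pairs with the Fcgrt product, differed by -0.02 on the log2 scale between these classes (edgeR adjusted p = 0.973).

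The activating genes gave few UMIs in stroma. Cr2-positive stroma had 6, 0 and 5 Fcer1g UMIs (8.03, 0 and 16.3 CPM) against 5.43, 1.36 and 5.75 CPM in Cr2-negative stroma, and the difference did not pass the test (log2 fold change 0.83 ± 0.97, edgeR adjusted p = 0.696). Fcgr3 gave 1, 0 and 1 UMIs in Cr2-positive stroma, and Fcgr1 gave 0, 0 and 1. For Fcgr1 in 2-IC replicate 1, 0 of 121 barcodes allows a share of up to 2.48%, and for Fcgr3 in 2-IC replicate 2, 0 of 20 barcodes allows up to 15%; these limits are on barcodes with a UMI, not on cells that express the gene. Fcgr3 and Fcgr1 did not pass the filter on low counts and so have no test in any comparison. Of the 4 members tested between Cr2-positive and Cr2-negative stroma, 2 were higher and 1 was lower, where 10.7% of 10020 genes were called in either direction.

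Fcgr2b and Fcer2a were found together in single Cr2-positive barcodes more often than the product of their shares. Both were present in 24.8% of barcodes in 2-IC replicate 1 (30 of 121, exact 95% interval 17.4 to 33.5), 25% in 2-IC replicate 2 (5 of 20, 8.66 to 49.1) and 38.1% in 1-IC replicate 1 (16 of 42, 23.6 to 54.4), against products of 15.0%, 12.2% and 28.0%. The share with both lay above the product in each library, and the interval excluded the product in 2-IC replicate 1 only. Seen another way, Fcer2a was detected in 58.8%, 71.4% and 61.5% of Cr2-positive barcodes with Fcgr2b and in 18.6%, 15.4% and 18.8% of those without. At 2000 UMIs per barcode the shares with both were 12%, 15% and 18.4% and the products 4.2%, 5% and 12.9%, so the order held at matched depth. Without barcodes low in the nuclear RNA Malat1 the shares were 17.8%, 15.4% and 33.3% and the products 11.3%, 4.73% and 20.8%.

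In Cd79a barcodes, where both genes were also common, the share with both was 16.4%, 28% and 14.9% and the product 15.7%, 26.4% and 16.2%. The 2 values lay within 2 percentage points of each other in each library. In Cr2-positive mixed barcodes the share with both was 24.7%, 30.8% and 30.8% against products of 20.7%, 26.0% and 23.7%. Fcgrt did not follow the pair in Cr2-positive stroma: it was found with Fcgr2b in 13.2%, 15% and 23.8% of barcodes (products 15.0%, 19.2% and 22.1%) and with Fcer2a in 8.26%, 10% and 11.9% (products 12.6%, 19.2% and 16.2%). No test was made of these shares, which are over barcodes of 3 libraries.

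**Figure D2:**
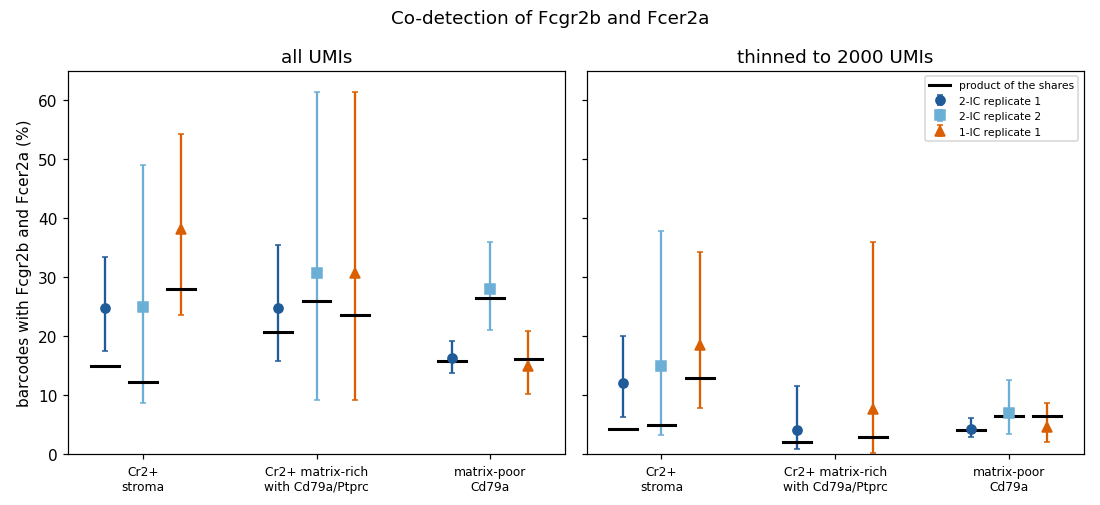
Percent of barcodes with at least 1 UMI of both Fcgr2b and Fcer2a (y axis) in 3 barcode classes, at full depth (left) and thinned to 2000 UMIs per barcode (right), with exact 95% binomial intervals; black dashes mark the product of the shares of each gene. In Cr2-positive stroma the points (24.8%, 25% and 38.1%) lay above the dashes (15.0%, 12.2% and 28.0%), while in Cd79a barcodes points and dashes were close; Cr2-positive mixed barcodes of 2-IC replicate 2 have no point at 2000 UMIs because none held Fcgr2b.

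Within Cr2-positive stroma the pair was unevenly spread. A positive barcode held a median of 2, 6 and 2 Fcgr2b UMIs with maxima of 9, 8 and 12, and a median of 2, 6 and 2 Fcer2a UMIs with maxima of 22, 9 and 20. Barcodes with a single Cr2 UMI (49, 4 and 9 barcodes) had Fcgr2b at 52.3, 0 and 32.3 CPM, those with 2 to 4 Cr2 UMIs (25, 3 and 10) at 261, 29.4 and 373 CPM, and those with 5 or more (47, 13 and 23) at 227, 171 and 249 CPM. Barcodes with 1 Cr2 UMI were thus the lowest group for Fcgr2b in each library, while the order of the other 2 groups differed between libraries. For Fcer2a the levels were 28.1, 0 and 96.9 CPM at 1 Cr2 UMI, 331, 0 and 569 CPM at 2 to 4, and 266, 171 and 180 CPM at 5 or more. For Fcgrt they were 157, 319 and 48.4 CPM, then 131, 117 and 71.1 CPM, then 59.97, 78.3 and 84.9 CPM, a fall in the 2-IC libraries and a rise in 1-IC replicate 1.

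RNA content moved with the pair as well. Malat1 is a nuclear RNA whose share is low in droplets that lack an intact nucleus, and 31, 7 and 18 Cr2-positive barcodes had under 1% of their UMIs from it. In these, Fcgr2b stood at 365, 427.5 and 436 CPM and Fcer2a at 324, 598 and 563 CPM, against 136, 63.7 and 183 CPM and 172, 27.9 and 163 CPM in the rest. Fcgrt was lower there, at 64.8, 0 and 0 CPM against 111, 155 and 91.4 CPM. The barcodes low in Malat1 were also shallower, with median depths of 3260, 5890 and 3207 UMIs against 6712.5, 17782 and 9977.5. The part of RNA quality in the levels was not tested, but without these barcodes Fcgr2b, Fcer2a and Fcgrt kept their calls between Cr2-positive and Cr2-negative stroma.

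**Figure D3:**
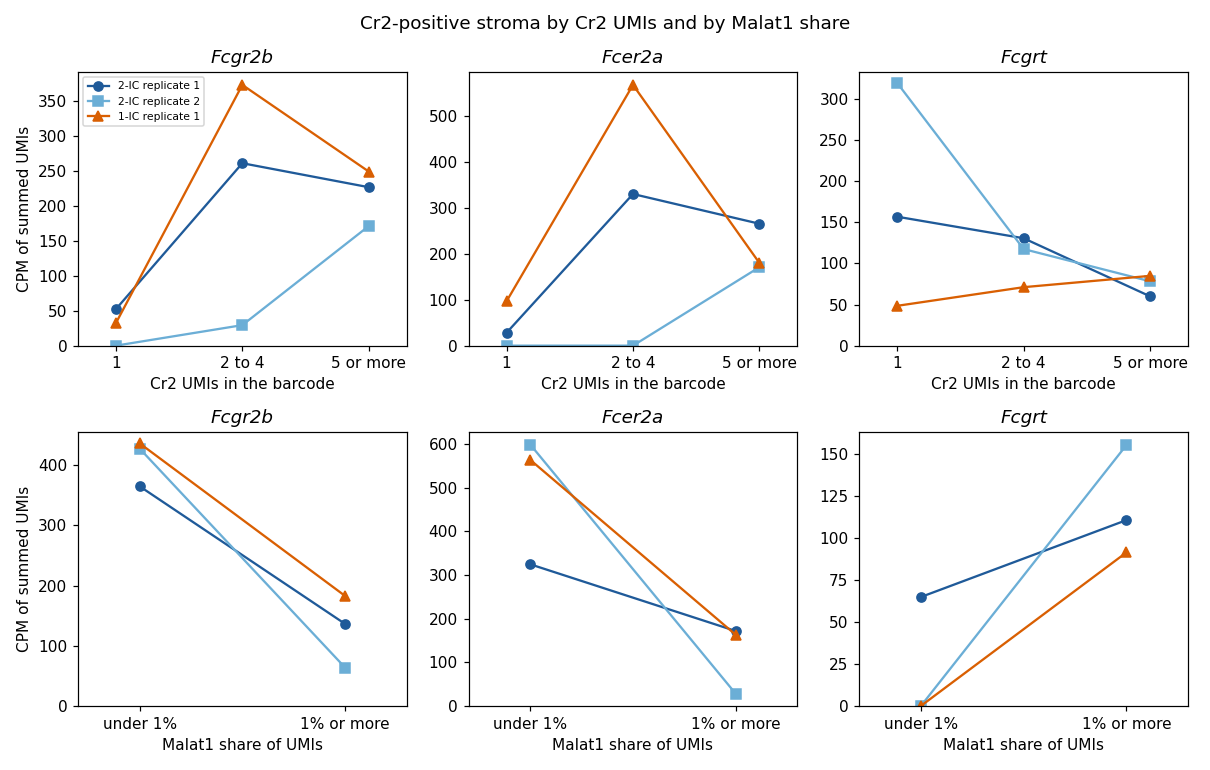
Levels of Fcgr2b, Fcer2a and Fcgrt in Cr2-positive stroma (y axis, CPM) by number of Cr2 UMIs in the barcode and by share of UMIs from Malat1 (x axes), with 1 point per library and lines joining the points of a library. Fcgr2b was lowest in barcodes with a single Cr2 UMI (52.3, 0 and 32.3 CPM), and Fcgr2b and Fcer2a were higher where Malat1 was under 1% of UMIs.

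When Cr2-positive stroma was divided by an Fcgr2b UMI, 2-IC replicate 1 and 1-IC replicate 1 had enough barcodes for a test. In contrast, 2-IC replicate 2 had 7 with and 13 without, and at least 10 were required. The tests of this division and of that by Fcer2a thus rested on 2 libraries, with 2 sums in each. So few sums say little of the spread of a single gene, and the p-values lean mostly on spread estimated over many genes. Fcer2a was at 388 and 322 CPM in barcodes with Fcgr2b and at 39.1 and 66.7 CPM in those without, a log2 fold change of 2.90 ± 0.35 (edgeR adjusted p = 0.000197). Divided by Fcer2a instead, Fcgr2b differed by 2.26 ± 0.28 (edgeR adjusted p = 9.95e-05). In each of these comparisons 1 of 2 tested members was called, where 4.38% of 4154 genes and 5.95% of 3595 genes were. Fcgrt passed in neither (log2 fold change -0.58 ± 0.37, edgeR adjusted p = 0.555, by Fcgr2b and -0.88 ± 0.36, 0.212, by Fcer2a). At 2000 UMIs the Fcgr2b difference by Fcer2a was 2.02 and did not pass (edgeR adjusted p = 0.124).

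The genes that moved most with the pair were largely outside the Fc receptor family. With Fcgr2b, Aplp1 (an amyloid precursor-like protein) was higher, at 145 and 144 CPM against 7.32 and 19.1 CPM (edgeR adjusted p = 0.000299), followed by Slc4a8, Nphs1, Fcer2a and Epcam. Lower were Cyp2f2, Inmt, Lpl (lipoprotein lipase), Apoc1 and Scn7a. With Fcer2a, Csn2, Tubb2b, Slc4a8 and Coch were higher, and Coch, an FDC marker, measured 577 and 373 CPM against 104 and 22.5 CPM. Apoe (apolipoprotein E) was lower with Fcer2a, at 2184 and 140 CPM against 12290 and 3105 CPM, as were Ptn, Gpx3, Adamts1 and Vtn. Cr2 was at 1535 and 1313 CPM with Fcgr2b against 693 and 610 CPM without. Barcodes with Fcer2a had a median of 1.73% and 0.0381% of UMIs from Malat1 against 3.69% and 7.57% in those without, and the part of this in the gene differences was not tested.

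Mixed barcodes held the stromal and the immune genes together. In the Cr2-positive ones Fcgr2b was at 89.2, 15.3 and 38.8 CPM and Fcer2a at 138, 105 and 233 CPM, against 16.8, 7.80 and 19.1 CPM and 42.5, 13.001 and 44.6 CPM in the Cr2-negative ones. The Fcer2a classes did not overlap and its difference passed (log2 fold change 2.09 ± 0.35, edgeR adjusted p = 0.00585). The Fcgr2b levels overlapped, since 15.3 CPM in 2-IC replicate 2 lay below 19.1 and 16.8 CPM, and the difference did not pass (1.94 ± 0.55, edgeR adjusted p = 0.13). It passed without 2-IC replicate 2 (2.16, edgeR adjusted p = 0.025) and fell to 0.94 without 2-IC replicate 1, while Fcer2a no longer passed without 1-IC replicate 1 (2.00, 0.0669). In this comparison 1 of 4 tested members was called, and 0.868% of all genes. The B cell marker sum moved alike, at 1524, 1400 and 1955 CPM in Cr2-positive and 757, 268 and 1306 CPM in Cr2-negative mixed barcodes, and its part in the result was not tested. Cr2 is itself a B cell gene, so a B cell in such a barcode can place it in the Cr2-positive class.

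Set against Cr2-positive stroma, Cr2-positive mixed barcodes had less Fcgr2b (log2 fold change -1.73 ± 0.43, edgeR adjusted p = 0.0291), and each library was lower than its own stroma. The call was lost at 2000 UMIs (-0.82), and without 1-IC replicate 1 (-1.46), and the difference was -2.81 without 2-IC replicate 1. The FDC marker sum was also lower in these mixed barcodes, at 30567, 26107 and 34413 CPM against 60279, 42329 and 86261 CPM in stroma. Cr2, one of these markers, was at 480, 289 and 163 CPM against 1073, 745 and 1073 CPM. The part of this in the Fcgr2b difference was not tested. Fcer2a (-0.35 ± 0.31, edgeR adjusted p = 0.679) and Fcgrt (0.22 ± 0.24, 0.754) did not pass, so 1 of 4 tested members was called, with 3.37% of all genes. Fcgrt was at 129, 128 and 116 CPM in Cr2-positive and 196, 140 and 115 CPM in Cr2-negative mixed barcodes. One Cr2-negative mixed barcode of 2-IC replicate 2 held all 6 members.

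Cd79a barcodes carried the B cell form of the pattern, with Fcer2a high. Fcer2a measured 229, 311 and 372 CPM there and was seen in 59.3%, 79.3% and 72.3% of barcodes. It was higher than in Cr2-positive stroma in each library (log2 fold change 0.97 ± 0.27, edgeR adjusted p = 0.00704), although 229 CPM in 2-IC replicate 1 lay below 235 CPM in stroma of 1-IC replicate 1. The Fcer2a call was lost with a matrix threshold of 4% (0.87), with 2 or more Cr2 UMIs (0.65) and without the library block (0.91). Fcgr2b was at 66.1, 55.2 and 66.5 CPM, below the 3 stromal values, with a log2 fold change of -1.19 ± 0.36 (edgeR adjusted p = 0.0115); the DESeq2 fit gave -1.21 (adjusted p = 0.0513), and without 1-IC replicate 1 the difference was -0.90 and did not pass. Fcgrt was at 51.0, 53.2 and 50.8 CPM, also below stroma (-0.80 ± 0.23, edgeR adjusted p = 0.00779), but it no longer passed without 2-IC replicate 1 (-0.79) or without 2-IC replicate 2 (-0.53), and with a matrix threshold of 4% the direction turned (0.40).

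Fcer1g was 2.47 ± 0.73 higher on the log2 scale in Cd79a barcodes than in Cr2-positive stroma (edgeR adjusted p = 0.0103). That count rested on few barcodes: of 325, 5 and 44 UMIs, the 3 highest barcodes of each library held 232, 5 and 39, and the gene was seen in 3.74%, 1.33% and 4.26% of barcodes. The call was lost without 2-IC replicate 1 (1.62, edgeR adjusted p = 0.268) and without 1-IC replicate 1 (2.98, 0.0523). All 4 tested members were called in this comparison, 2 higher and 2 lower, where 43.1% of all genes were called.

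**Figure D4:**
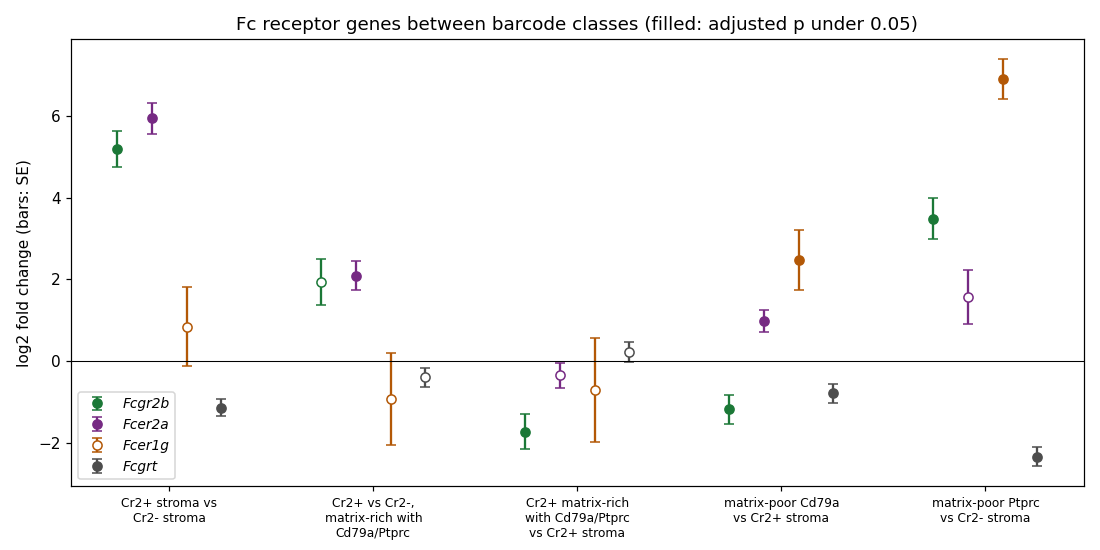
Log2 fold change (y axis) of the tested Fc receptor genes in 5 class comparisons (x axis), with bars of 1 standard error from edgeR and filled points where the adjusted p was under 0.05. Fcgr2b (5.19) and Fcer2a (5.94) were higher and Fcgrt (-1.14) was lower in Cr2-positive than in Cr2-negative stroma, and Fcer1g showed its greatest value in Ptprc barcodes (6.90).

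Ptprc barcodes held the activating genes. Fcer1g stood at 506, 241 and 557 CPM there against 5.43, 1.36 and 5.75 CPM in Cr2-negative stroma (log2 fold change 6.90 ± 0.49, edgeR adjusted p = 1.11e-09), and it was seen in 22.3%, 19.0% and 20% of the barcodes. Fcgr3 gave 15, 4 and 1 UMIs in 7, 3 and 1 barcodes, and Fcgr1 gave 29, 6 and 0 UMIs in 8, 1 and 0 barcodes. In 2-IC replicate 1 all 7 Fcgr3 barcodes and all 8 Fcgr1 barcodes also held Fcer1g, which was present in 33 of the 148 barcodes. Fcgr3 and Fcgr1 were found together in 5 of them. In 2-IC replicate 2, Fcer1g was present in 2 of 3 Fcgr3 barcodes and in the single Fcgr1 barcode.

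Fcgr2b was also higher in Ptprc barcodes than in Cr2-negative stroma, at 99.2, 13.1 and 22.6 CPM against 5.10, 1.09 and 11.5 CPM (log2 fold change 3.48 ± 0.50, edgeR adjusted p = 1.04e-05), with 2-IC replicate 1 well above the others. Without that library the difference was 2.13 (edgeR adjusted p = 0.0113). It was seen in 13.5%, 6.35% and 5.71% of these barcodes, with 83, 10 and 5 UMIs in 20, 4 and 2 barcodes. In 1-IC replicate 1 its Poisson interval (7.35 to 52.9 CPM) overlapped that of Cr2-negative stroma (6.57 to 18.7 CPM). Of the 20 positive barcodes in 2-IC replicate 1, 13 held Fcer1g (65%, against 15.6% of those without Fcgr2b). Fcer2a, at 13.1, 1.31 and 9.06 CPM, did not pass (1.57 ± 0.66, edgeR adjusted p = 0.0554), but did without 2-IC replicate 2 (1.93, 0.0154). Fcgrt was lower than in Cr2-negative stroma, at 59.8, 35.3 and 18.1 CPM (-2.34 ± 0.23, edgeR adjusted p = 8.9e-08). Thus 3 of 4 tested members were called, 2 higher and 1 lower, where 49.5% of all genes were. The class is a mixture: its myeloid marker sum was 2619, 764 and 1735 CPM and its T cell marker sum 1815, 2457 and 2342 CPM. Its NK cell marker sum was 189, 326 and 313 CPM. Its FDC marker sum was 3641, 551 and 1037 CPM and its B cell marker sum 405, 402 and 344 CPM. The myeloid and the FDC sums were both in the same library order as Fcgr2b. The sources of the Fcgr2b and Fcer1g transcripts in the class were not tested. There were 19.3, 31.5 and 32.1 Fcer1g UMIs per 100 myeloid marker UMIs in it, and 5.66, 0 and 8.47 in Cr2-positive stroma. Cd14, one of these markers, went the other way, at 32.3, 10.5 and 4.53 CPM in Ptprc barcodes and 33.5, 57.1 and 29.3 CPM in Cr2-positive stroma. In 2-IC replicate 2 Cd14 made up most of the stromal myeloid sum of 70.5 CPM, but the ratio there was 0 because no Fcer1g UMI was seen. Lyz2 was the largest part of that sum in 2-IC replicate 1 (73.6 of 142 CPM) and in 1-IC replicate 1 (117 of 192 CPM).

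The wider pathway was counted by role from a list. Of 11 other Fc-binding receptors, 5 were tested, and between Cr2-positive and Cr2-negative stroma 1 was higher and 0 were lower, where 10.7% of all genes were called, with a median log2 fold change of 0.13 against -0.01 over all genes. That gene was Fcamr, the receptor for IgA and IgM, with 22, 11 and 9 UMIs in Cr2-positive stroma (29.4, 36.9 and 29.3 CPM) and 1, 0 and 0 in Cr2-negative stroma (edgeR adjusted p = 8.93e-06). Fcmr, the IgM receptor, and Fcrla did not pass there, but Fcmr was higher in Cr2-positive mixed barcodes (log2 fold change 5.50) and in Cd79a barcodes (7.47) than in Cr2-positive stroma. Fcamr was lower in Cd79a barcodes than in Cr2-positive stroma (-2.96 ± 0.61, edgeR adjusted p = 0.000782).

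Of 7 genes listed under inhibitory signalling, 1 was higher in Cr2-positive than in Cr2-negative stroma (median 0.89), where 10.7% of all genes were called. This was Blnk, an adaptor that acts below Syk in B cell receptor activation and so does not bear out the name of the list, at 96.4, 87.3 and 137 CPM against 29.5, 20.1 and 49.6 CPM (1.74 ± 0.23, edgeR adjusted p = 2.52e-05). Lyn and Ptpn6 did not pass (edgeR adjusted p = 0.23 and 0.193), nor did Inpp5d, whose product is the SHIP1 phosphatase recruited by FcγRIIB. Of 8 genes of ITAM signalling, which transmits activating receptors, 1 was higher (median 1.45), again beside 10.7% of all genes: Syk, at 16.1, 6.71 and 19.6 CPM against 1.32, 0.815 and 1.44 CPM (3.53 ± 0.54, edgeR adjusted p = 0.000165), on 12, 2 and 6 UMIs. In Cd79a barcodes 4 of 7 genes of the inhibitory list, Blnk among them, and 7 of 8 ITAM genes were higher than in Cr2-positive stroma, where 43.1% of all genes were called. In Ptprc barcodes 5 of 7 genes of the inhibitory list were higher than in Cr2-negative stroma and 1, Blnk, was lower, and 8 of 8 ITAM genes were higher, where 49.5% of all genes were called. Among the ITAM genes was Tyrobp, the DAP12 adaptor, at 432, 305 and 521 CPM against 7.24, 3.26 and 4.31 CPM. Of the partner genes, Adam10, a protease that sheds CD23, did not pass between the stromal classes (0.83 ± 0.27, edgeR adjusted p = 0.0548).

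Genes with the most similar pattern were found by the Pearson correlation of log2(CPM + 10) over 18 sums (6 classes in 3 libraries, which share libraries), among 6157 genes. They were Prr13, Zbtb18 and Cd200 for Fcgr2b (r = 0.92, 0.90 and 0.89). For Fcer2a they were Blnk, Cd55 and Strbp (0.90, 0.90 and 0.89), and Fcer2a with Fcgr2b gave 0.72. For Fcer1g they were Tyrobp, Lgals3 and Ms4a6c (0.98, 0.95 and 0.95), and for Fcgrt Lamb2, Fxyd1 and Ifitm2 (0.97 each). Spp1 was nearest to both Fcgr3 (0.86) and Fcgr1 (0.92), whose sums rest on very few UMIs.

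Between 2-IC and 1-IC mice the levels can be set side by side only, with 1 library of 1-IC. The short names of the 2-IC libraries hold Biotin and that of 1-IC holds ICPE, so this label cannot be told apart from the number of ICs. In Cr2-positive stroma, 1-IC replicate 1 was above both 2-IC libraries for Fcgr2b (228 against 174 and 121 CPM) and for Fcer2a (235 against 197 and 117 CPM), and below both for Fcgrt (75.0 against 103 and 131 CPM). The 2-IC libraries differed from each other too, and for the 3 genes 2-IC replicate 1 lay between 2-IC replicate 2 and 1-IC replicate 1. Poisson intervals of 2-IC replicate 1 and 1-IC replicate 1 overlapped for the 3 genes. Those of 2-IC replicate 2 and 1-IC replicate 1 did not overlap for Fcgr2b or Fcer2a. These intervals do not measure the spread between barcodes. The 3 highest barcodes held 23 of 130, 23 of 36 and 29 of 70 Fcgr2b UMIs. For Fcer2a they held 43 of 147, 22 of 35 and 38 of 72. The share of Cr2-positive barcodes low in Malat1 also differed, at 31 of 121, 7 of 20 and 18 of 42, and its part in these differences was not tested.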

How the data were processed

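The deposited files hold raw UMI counts per gene and barcode, which the authors made from 10x Chromium 3' libraries with Cell Ranger (version 5.0.0 per the file headers, an earlier one in the methods) on GRCm38 with Ensembl annotation. They were used as deposited, with no ambient correction and no batch integration. Summed UMIs were 20607903, 12788101 and 3766526. Scrublet (scanpy 1.11.5) marked 1, 4 and 12 barcodes as doublets, too few to be taken as a working call, and none was removed for that reason. Counts were summed per library and class over classes of at least 10 barcodes, and tested with edgeR 4.0.16 (quasi-likelihood test, TMM, filterByExpr, library as block, R 4.3.3), with Benjamini-Hochberg adjustment over the genes tested and a threshold of 0.05. The 18 sums of 6 classes shared one estimate of spread, and the divisions by Fcgr2b or Fcer2a were fitted separately with the dividing gene left out. The code was tested on simulated counts first. Shares have exact binomial and levels exact Poisson 95% intervals (scipy 1.17.1), and a count of 0 was read as up to 3 counts.

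The members, marker lists and pathway lists were chosen with earlier results of these data known. Named were the members, the pathway genes called plus the 2 highest in each role, the 3 nearest genes by correlation, and up to 5 genes each way in the divided comparisons that moved alike in each library. Pathway genes with calls are named in part. One gene that this rule would name is not reported here. Alternatives were the matrix threshold, the number of Cr2 UMIs, depth thinning, gene and barcode filters, Malat1, Scrublet calls, DESeq2 1.42.0, size factors, the block and each library left out; leaving out the shallower copies of shared barcodes was added after seeing the data.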

Additional observations from a re-analysis of the deposited data

Results flagged for a closer look

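Fc receptor transcripts were also present in barcodes outside the 6 classes compared, above the limit that a count of 0 allows, and are given here as values summed over the libraries. In 47 unmarked matrix-poor barcodes with Cr2, Fcgr2b was at 380 CPM (88 UMIs), Fcer2a at 216 CPM (50 UMIs) and Fcgrt at 30.2 CPM (7 UMIs). Most of this came from 2-IC replicate 2, with 67 of the Fcgr2b and 42 of the Fcer2a UMIs, 22 of the latter in 1 barcode: by library Fcgr2b was at 163, 563 and 346 CPM and Fcer2a at 71.3, 353 and 69.2 CPM. The median Malat1 share of these barcodes was 8.71%, 19.4% and 30.0%, against 2.90%, 4.82% and 6.95% in Cr2-positive stroma. Higher levels of the pair at low Malat1 are thus described for Cr2-positive stroma only. In 529 unmarked matrix-poor barcodes without Cr2, Fcgr2b was at 3.03 CPM (10 UMIs), Fcer2a at 2.12 CPM (7 UMIs), Fcer1g at 20.3 CPM (67 UMIs) and Fcgrt at 143 CPM (472 UMIs). In 510 barcodes with another of the 13 lineage genes only, Fcgr2b was at 21.2 CPM (110 UMIs), Fcer2a at 17.8 CPM (92 UMIs), Fcer1g at 5.41 CPM (28 UMIs) and Fcgrt at 181 CPM (936 UMIs). Thus Fcgr2b and Fcer2a again stood higher in the Cr2-positive of the unmarked barcodes and Fcgrt higher in the Cr2-negative ones, a difference that was not tested.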

How the results depend on the processing

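Between Cr2-positive and Cr2-negative stroma, Fcgr2b, Fcer2a and Fcgrt kept their direction and call in each alternative run, while Fcer1g, never called there, turned to -0.51 with a matrix threshold of 4% and to -0.44 without barcodes low in Malat1. Genes called in that comparison (1072) numbered 578 at 2000 UMIs, 1730 without the count filter, 505 without the library block, and 459 to 1239 with a library left out.

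In Cr2-positive against Cr2-negative mixed barcodes (87 genes called), 144 were called with a matrix threshold of 1%, 4 with 4%, 150 with 2 or more Cr2 UMIs, 47 at 2000 UMIs, 351 without the count filter, 18 without the block and 16 to 97 with a library left out. Fcgr2b passed there without the count filter (1.82) and with only these classes fitted (1.97), and ranged from 0.94 to 2.16 with a library left out; Fcer2a no longer passed with 4% (2.42) or without the block (2.17), and ranged from 1.84 to 2.71; Fcer1g turned to 7.03 with 4%. For Cr2-positive mixed barcodes against Cr2-positive stroma (338), the counts were 946 with 1%, 8 with 4%, 159 with 2 Cr2 UMIs, 129 at 2000 UMIs, 608 without the filter, 204 without the block and 104 to 388 with a library left out. Fcgr2b no longer passed there with 4% (-0.43), 2 Cr2 UMIs (-1.57), 2000 UMIs (-0.82), without low-Malat1 barcodes (-1.29) or without the block (-1.76), and ranged from -2.81 to -1.37 with a library left out. Uncalled values turned for Fcer2a (0.014 with 1%, 0.23 without low-Malat1 barcodes), Fcer1g (0.72 with 4%) and Fcgrt (-0.022 at 2000 UMIs).

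For Cd79a barcodes against Cr2-positive stroma (4322), 2088 genes were called with 4%, 1927 at 2000 UMIs and 2302 to 4085 with a library left out. Fcgr2b no longer passed with 4% (-1.13), without low-Malat1 barcodes (-0.62), with DESeq2 (-1.21) or without the block (-1.29), and ranged from -1.25 to -0.90 with a library left out. Fcer2a no longer passed with 4% (0.87), 2 Cr2 UMIs (0.65) or no block (0.91), and Fcer1g without the block (2.48), with a range of 1.62 to 2.98 for a library left out. Fcgrt turned to 0.40 with 4%, did not pass with 2 Cr2 UMIs (-0.42) or without the count filter (-0.61), and ranged from -0.84 to -0.53. For Ptprc barcodes against Cr2-negative stroma (4962), 2055 were called at 2000 UMIs, and Fcer2a passed with stroma defined by Cd79a and Ptprc alone (1.70), without the quality filter (3.10), without low-Malat1 barcodes (2.35), with DESeq2 (1.71), RLE size factors (1.62) or no count filter (1.49), with a range of 1.33 to 1.93 for a library left out.

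Dividing by Fcgr2b (182 genes called) gave 0 with 4%, 64 at 2000 UMIs, 31 with DESeq2, 299 without the filter and 31 without the block; Fcer2a then did not pass with 4% (1.94), and Fcgrt, uncalled, turned to 0.27. Dividing by Fcer2a (214) gave 85 with 4%, 0 with 2 Cr2 UMIs, 15 at 2000 UMIs, 38 with DESeq2 and 7 without the block; Fcgr2b did not pass with 2 Cr2 UMIs (1.68) or at 2000 UMIs (2.02). These divisions could not be fitted without 2-IC replicate 1, without 1-IC replicate 1 or without low-Malat1 barcodes, nor the first with 2 Cr2 UMIs. The mean share with both Fcgr2b and Fcer2a in Cr2-positive stroma (29.3%) was 21.01% with 4%, 37.6% with 2 Cr2 UMIs and 15.1% at 2000 UMIs. By library, the shares with 4% were 29.7%, 0% and 33.3% against products of 22.4%, 0% and 24.4%. Fcgr2b was not seen in the 8 such barcodes of 2-IC replicate 2. With 2 Cr2 UMIs the shares were 36.1%, 31.25% and 45.5% against products of 29.9%, 19.1% and 39.7%. The causes of these changes were not tested, apart from fewer UMIs by construction in the thinned fits. Among the alternative fold changes of members, 348 kept their direction and side of the threshold, 27 lost the call, 10 gained one and 9 turned direction. Classes were compared within library, with library as block. Between the 2-IC and 1-IC groups no paired analysis was possible, because they were not compared by a test and share only 1 replicate number. Few barcodes limit the rest: Cr2-positive stroma of 2-IC replicate 2 had 20.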
